A study of Homo sapiens with 8 samples.

Results

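The dioxygenase genes described here are 10 enzymes that use molecular oxygen to remove methyl marks from chromatin: KDM3A, KDM4A, KDM4B, KDM4C, KDM5A, KDM5B, KDM6A and KDM6B, whose catalytic JmjC domain acts on histones, and TET2 and TET3, which act on DNA. They were taken by name, and each was read from the probe set that matches that gene alone, the one of highest mean where there were several. All 10 were among the 18417 genes with such a probe set, and all 10 were among the 11050 genes kept by a filter on dim signal, so every test below covers each of them. Transcript levels came from 8 whole-transcript Affymetrix arrays of 786-O cells, a human clear cell renal carcinoma line. The line lacks functional VHL and so keeps the HIF alpha subunit HIF2a stable at normal oxygen. The cells were either parental or labelled HIF2a null, made with CRISPR, and received DMSO or 2 uM PT2399, a compound that blocks HIF2a, for 24 h or 48 h in DMEM with serum. There was 1 array for each combination of cells, treatment and time. Parental and null cells were handled in independent experiments, so their genotype and their experiment cannot be told apart. The sources used here do not say whether the null cells are 1 clone or a pool, nor whether the arrays came from separate cultures, so the spread between arrays may be technical.

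These enzymes need oxygen, iron and 2-oxoglutarate for each reaction, and succinate and fumarate compete with 2-oxoglutarate. Several of them, KDM3A and KDM4B among the best known, are also transcribed under the control of hypoxia-inducible factors in many cell types, so that a cell short of oxygen makes more of an enzyme whose reaction has slowed. HIF dimers bind a short core, ACGTG or GCGTG, in hypoxia response elements. In clear cell renal carcinoma, genes of chromatin regulation are frequently mutated.

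The upstream sequences of 4 of the genes are shown because the transcripts passed the fold limit used below at both times in a comparison of PT2399 or genotype (KDM6B, KDM5B and KDM4B) or because the gene is a well-known HIF target (KDM3A). Each run is the 250 bases before the most upstream RefSeq start of the gene (GRCh38.p14), read 5′ to 3′ on the gene's strand, and capitals mark ACGTG or GCGTG on either strand. KDM6B lies at chr17:7833967-7834216 on the plus strand, KDM5B at chr1:202808422-202808671 on the minus strand, KDM4B at chr19:4968863-4969112 on the plus strand, and KDM3A at chr2:86441121-86441370 on the plus strand.
KDM6B: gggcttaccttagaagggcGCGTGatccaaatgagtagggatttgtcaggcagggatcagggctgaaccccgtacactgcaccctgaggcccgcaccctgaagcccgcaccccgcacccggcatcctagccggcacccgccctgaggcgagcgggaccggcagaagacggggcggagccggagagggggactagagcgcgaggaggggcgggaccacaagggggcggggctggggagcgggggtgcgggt
KDM5B: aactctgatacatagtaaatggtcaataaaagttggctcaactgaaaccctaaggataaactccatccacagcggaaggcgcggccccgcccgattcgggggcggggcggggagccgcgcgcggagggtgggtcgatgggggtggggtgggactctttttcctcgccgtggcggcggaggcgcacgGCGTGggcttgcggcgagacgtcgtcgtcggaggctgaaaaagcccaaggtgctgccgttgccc
KDM4B: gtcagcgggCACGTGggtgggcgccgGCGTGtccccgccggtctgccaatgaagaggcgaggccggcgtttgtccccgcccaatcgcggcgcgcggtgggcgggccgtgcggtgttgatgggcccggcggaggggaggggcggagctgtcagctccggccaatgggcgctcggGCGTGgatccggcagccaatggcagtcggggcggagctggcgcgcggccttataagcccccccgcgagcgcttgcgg
KDM3A: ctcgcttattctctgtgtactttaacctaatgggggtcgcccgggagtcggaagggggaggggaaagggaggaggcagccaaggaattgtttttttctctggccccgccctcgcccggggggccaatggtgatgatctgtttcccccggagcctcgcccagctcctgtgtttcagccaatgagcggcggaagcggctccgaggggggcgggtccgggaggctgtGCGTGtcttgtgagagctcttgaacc
The KDM3A window had 1 match, 26 bases before the start, KDM5B had 1 at 64 bases and KDM6B had 1 at 231 bases. KDM4B had 4 matches, a pair of which come from the palindrome CACGTG, which holds ACGTG on both strands and is also the E-box read by other basic helix-loop-helix proteins. All 10 genes had at least 1 match at their most upstream start, where 58% of 8888 genes above the filter had one. CACGTG stood in 5 of the 10 windows (KDM4B, KDM4C, KDM6A, TET2 and TET3), against 9.18% of those genes. These counts hold for the most upstream start. At a second RefSeq start, the windows of KDM3A and TET2 had 1 match each and those of KDM6B and TET3 had 0. None of these second windows held CACGTG. The matches describe letters only, and binding was not measured.

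The arrays had mean intensities between 436.9 and 462.8. The parental PT2399 array at 24 h had the highest median, 133.8 where the 3 other parental arrays had 112.4 to 113.5. Its difference from DMSO had the wider spread over genes, with an SD of 0.386 on the log2 scale against 0.199 at 48 h. The null PT2399 array at 48 h correlated across genes at 0.777 to 0.831 with the other null arrays, and its difference from DMSO had an SD of 0.928 against 0.24 at 24 h. Every null value at 48 h with PT2399 comes from this array, and the fits were also made without it. Those fits leave 1 residual degree of freedom, which comes from the parental arrays, so the lone null PT2399 array is assumed to vary as the parental arrays did. The targeted gene EPAS1, which encodes HIF2a, stood at 1277 and 1010 in parental DMSO cells and at 650 and 585 in null DMSO cells, which checks the labels only in part, since a disrupted gene can still be transcribed. Of the kidney markers, PAX8 ranged from 1983 to 2562 and PAX2 from 321 to 469, while CDH16, LRP2 and CUBN did not pass the filter, which asks for a mean over the 8 arrays of at least 118. All 4 endothelial markers, 3 of 4 leukocyte markers and 4 of 5 fibroblast markers did not pass it either. The exceptions were CD68, at 672 to 1252, and COL1A1, at 117 to 171.

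Among these genes, KDM6B and KDM5B were the 2 whose transcripts were past 0.32 higher on the log2 scale with PT2399 at both times in parental cells, a limit that stands for 25% higher or 20% lower and is used throughout. Over all genes tested, 2.04% were past it higher at both times and 1.88% lower, and 0 of the 10 were in the lower group. By sign alone, 6 of the 10 were higher at both times (30.7% of all genes) and 1 was lower (27.1%). None of the 10 passed the test across all genes, in which limma called 0 of 11050 (0%) at an adjusted p under 0.05. That fit also did not call the reference HIF targets EGLN3 (-2.64, limma adjusted p = 0.609), NDRG1 (-2.36, limma adjusted p = 0.455) and ADM (-2.21, limma adjusted p = 0.455). A gene left uncalled is therefore not shown to be unchanged. On the 4 parental arrays alone, which give the same parental effects, limma called 4 of the 11050 genes and 0 of the 10. There NDRG1 (limma adjusted p = 0.0286) and ADM (limma adjusted p = 0.0446) were called, and EGLN3 (limma adjusted p = 0.0833) was not. A separation of the 2 DMSO and the 2 PT2399 arrays without overlap was found for 5 genes with PT2399 higher (KDM4A, KDM4B, KDM5B, KDM6B and TET2), against 19.2% of all genes, and for KDM3A with PT2399 lower, against 17.3%. The intensities on all arrays are shown for each gene.

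**Figure D1:**
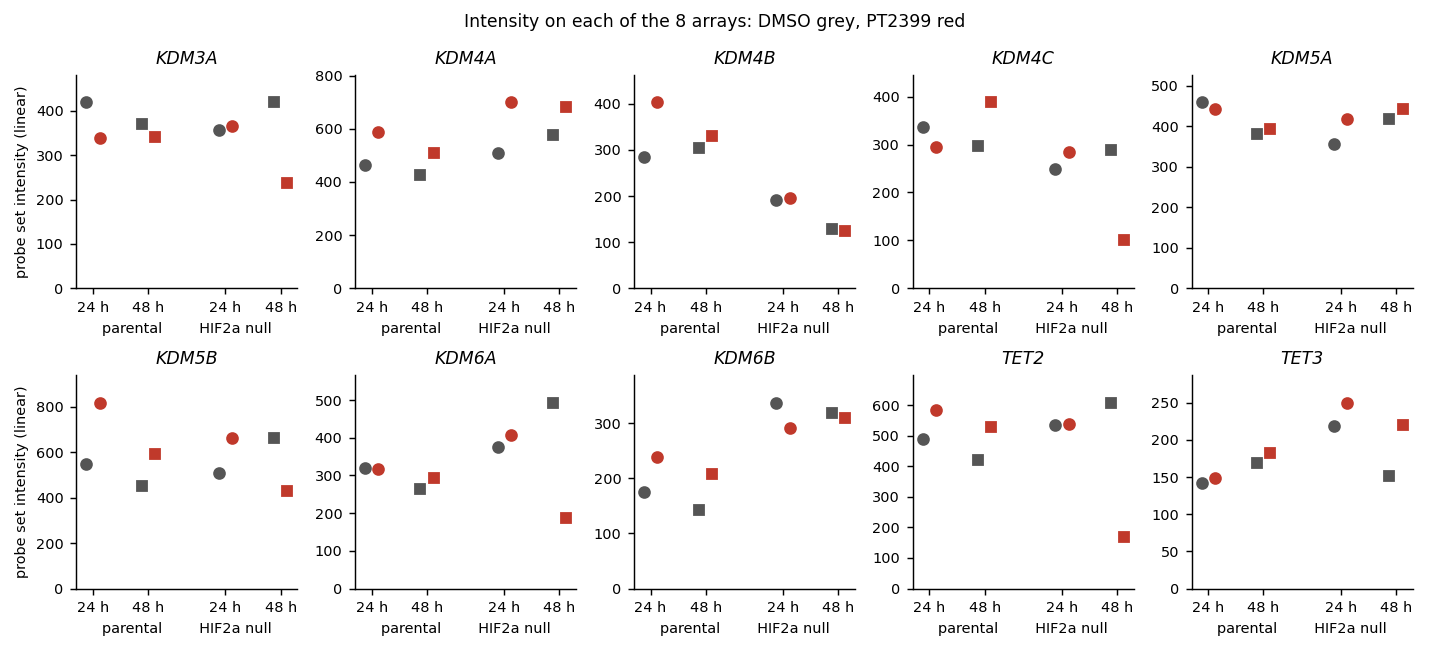
Probe set intensity (linear, from 0, 1 axis per gene) of the 10 genes on each of the 8 arrays, circles for 24 h and squares for 48 h, DMSO in grey and PT2399 in red. KDM6B is higher on all 4 null arrays (291 to 337) than on any parental array (142 to 239), and TET2, KDM4C and KDM6A have their lowest value on the null PT2399 array at 48 h.

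KDM6B, also called JMJD3, is an inducible demethylase of trimethylated H3K27, the mark laid down by Polycomb. In parental cells its intensity was 175 at 24 h and 142 at 48 h in DMSO, and 239 and 208 with PT2399. Both PT2399 arrays lay above both DMSO arrays, by 1.36-fold at 24 h and 1.46-fold at 48 h. The fitted effect was 0.50 on the log2 scale (SE 0.23, 95% interval -0.07 to 1.06, 2 pairs, limma adjusted p = 1.0), and 97.7% of all genes had a lower mean effect. In null cells KDM6B stood at 337 and 319 in DMSO and at 291 and 310 with PT2399. Here both PT2399 arrays lay below both DMSO arrays, with log2 differences of -0.21 and -0.04, as 12.6% of all genes did. The 310 is from the array that stood apart.

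KDM6B was also the 1 gene of the 10 whose PT2399 difference was past 0.32 higher in parental than in null cells at both times, by 0.66 at 24 h and 0.59 at 48 h, against 5.17% of all genes. None of the 10 was past it lower (5.38%). The values were 0.45 and 0.65 with each array centred on its median, and 0.52 and 0.50 after quantile normalization. The difference of the effects was 0.62 (SE 0.32, limma adjusted p = 0.945). Without the null PT2399 array at 48 h it was 0.71 (SE 0.23). In that fit the null PT2399 group is 1 array and the spread is that of the parental arrays, so only the size is given. The parental KDM6B difference depends on the scaling at 24 h: with each array centred, it was 0.24 at 24 h and 0.55 at 48 h, and after quantile normalization 0.28 and 0.50. Under both scalings KDM6B stayed higher with PT2399 at both times but no longer passed 0.32 at 24 h.

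In DMSO, KDM6B was 1.92-fold higher in null than in parental cells at 24 h and 2.24-fold higher at 48 h. The parental PT2399 arrays lay between these levels at each time, 0.50 and 0.62 below null DMSO on the log2 scale, and 10.3% of all genes were past 0.32 lower at both times in that comparison. All 4 null arrays were above all 4 parental arrays, as were those of 8.83% of all genes. No test was made, since genotype and experiment cannot be told apart. KDM6A (UTX), the X-linked H3K27 demethylase and a tumour suppressor gene, stood at 320 and 264 in parental DMSO cells and at 317 and 293 with PT2399. Those arrays overlap, with log2 differences of -0.01 and 0.15, an effect of 0.07 (SE 0.39) and an interval from -0.89 to 1.03. In null cells KDM6A was at 375 and 493 in DMSO and at 408 and 187 with PT2399. The 187 came from the array that stood apart, and without that array the 3 null values were above all 4 parental values, as those of KDM6B were (12.9% of all genes).

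KDM5A (RBP2, JARID1A) and KDM5B (PLU-1, JARID1B) remove di- and trimethylation from H3K4, the mark of active promoters. KDM5B had intensities of 549 and 453 in parental DMSO cells and of 817 and 591 with PT2399. The PT2399 arrays were higher by 1.49-fold at 24 h and 1.30-fold at 48 h, and the lower of them was above the higher DMSO array. Its effect was 0.48 (SE 0.31, 95% interval -0.28 to 1.24, limma adjusted p = 1.0), above the mean effect of 97.4% of all genes. The KDM5B difference stayed past 0.32 at both times with each array centred (0.37 and 0.39) and after quantile normalization (0.64 and 0.38).

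In null cells KDM5B was at 509 and 662 in DMSO and at 663 and 431 with PT2399, so the arrays of the 2 treatments overlapped. The 24 h pair was again higher, by 0.38 on the log2 scale, and KDM4A and KDM5B were the 2 of the 10 past 0.32 in that pair (8.99% of all genes). In the 48 h pair, with the array that stood apart, KDM5B was lower, at -0.62. The difference of the PT2399 effect between parental and null cells was 0.60 (SE 0.44, limma adjusted p = 0.945) over 8 arrays and 0.10 (SE 0.24, 95% interval -0.50 to 0.69) without that array. At 24 h alone the KDM5B difference was 0.57 in parental and 0.38 in null cells, 0.19 apart. KDM5A varied least of the 10, with a 1.29-fold range over the 8 arrays. Its parental values were 459 and 380 in DMSO and 442 and 394 with PT2399, an effect of 0.00 with an interval from -0.57 to 0.56. In null cells KDM5A was at 356 and 418 in DMSO and at 418 and 442 with PT2399. The highest DMSO and the lowest PT2399 value there are equal after rounding.

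**Figure D2:**
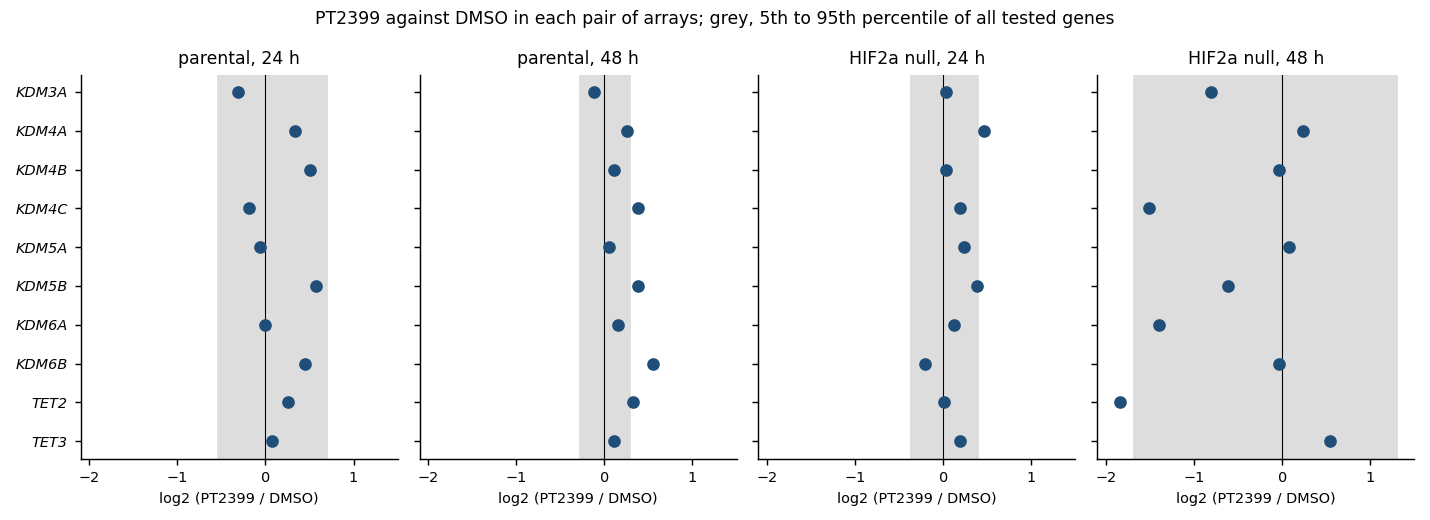
Log2 ratio of PT2399 to DMSO for each gene in each of the 4 pairs of arrays (x axis), with the range from the 5th to the 95th percentile of all 11050 genes in grey. In the parental 48 h pair KDM6B (0.55), KDM5B (0.38), KDM4C (0.38) and TET2 (0.33) lie above the grey range, which ends at 0.29, and the range is widest in the null 48 h pair.

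KDM3A, KDM4A, KDM4B and KDM4C act on methylated H3K9, KDM3A on its lower methylation states and the KDM4 enzymes on trimethylated H3K9 and H3K36. KDM3A (JMJD1A) was the 1 gene of the 10 that was lower with PT2399 at both times in parental cells. Its intensities were 419 and 371 in DMSO and 339 and 341 with PT2399. Both PT2399 arrays were below both DMSO arrays, by 1.24-fold at 24 h and 1.09-fold at 48 h, short of the limit at either time as deposited. The 24 h difference was past the limit with each array centred (-0.51) and after quantile normalization (-0.34). The effect was -0.21 (SE 0.29, 95% interval -0.92 to 0.50, limma adjusted p = 1.0), and 11.8% of all genes had a lower one. For scale, EGLN3, a prolyl hydroxylase gene and HIF target, had 863 and 566 in DMSO and 95 and 132 with PT2399 on the same arrays.

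In null DMSO cells KDM3A was at 357 and 419, where 357 is below both parental DMSO values and 419 equals the higher of them, so its level did not separate the genotypes. With PT2399 the null values were 366 at 24 h and 238 at 48 h. The null effect was -0.39 (SE 0.29) over 8 arrays and 0.03 (SE 0.19) without the array that stood apart. The difference of the effects was 0.18 (SE 0.41) with that array and -0.25 (SE 0.24, 95% interval -0.84 to 0.35) without it, so its sign rests on 1 array.

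KDM4A (JMJD2A) had intensities of 463 and 427 in parental DMSO cells and of 588 and 510 with PT2399. In null cells it was at 509 and 577 in DMSO and at 699 and 681 with PT2399. It was the 1 gene whose PT2399 arrays lay above the DMSO arrays without overlap in both kinds of cell, with an effect of 0.30 (SE 0.23) in parental and 0.35 (SE 0.23) in null cells. The effects differed by -0.05 (SE 0.33, 95% interval -0.85 to 0.75, limma adjusted p = 0.983). Without the null PT2399 array at 48 h, the KDM4A null effect was 0.46 (SE 0.19) and the effects differed by -0.16 (SE 0.23, 95% interval -0.73 to 0.42). In the null cells alone 16.7% of all genes showed a separation with PT2399 higher, and in the parental cells alone 19.2%. The share of all genes separated in both kinds of cell was not counted. KDM5A and TET3 were also separated with PT2399 higher in null cells.

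KDM4B (JMJD2B) was lower in null cells. Its parental intensities were 284 and 305 in DMSO and 403 and 330 with PT2399, and its null intensities were 192 and 129 in DMSO and 196 and 125 with PT2399. Every null array was below every parental array, which held for 22% of all genes. In DMSO the null level was 1.48-fold lower at 24 h and 2.36-fold lower at 48 h. The PT2399 effect was 0.31 (SE 0.24) in parental cells, mostly from 24 h (0.50 against 0.11 at 48 h), and -0.01 (SE 0.24) in null cells, or 0.03 (SE 0.22) without the array that stood apart. The parental PT2399 arrays were 1.07 and 1.35 above null DMSO on the log2 scale, and 25% of all genes were past 0.32 higher at both times there. It was also lower at 48 h than at 24 h in null cells under both treatments, by 0.57 in DMSO and 0.64 with PT2399. That time effect was -0.60 (SE 0.24, limma unadjusted p = 0.0464, adjusted p = 0.625) over 8 arrays and -0.57 (SE 0.22) without the array that stood apart. It was -0.46 (limma unadjusted p = 0.12) with each array centred and -0.48 (limma unadjusted p = 0.0836) after quantile normalization, so neither was under 0.05. Over all genes, 8.79% were past 0.32 lower in both pairs. None of the 10 was past 0.32 higher in both (4.45%).

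KDM4C (JMJD2C) gave parental values of 337 and 298 in DMSO and 295 and 388 with PT2399, which overlapped and changed direction between times, -0.19 at 24 h and 0.38 at 48 h. In null cells it was at 250 and 289 in DMSO and at 285 and 101 with PT2399. The null arrays all lay below the parental ones, narrowly, with 289 the highest null and 295 the lowest parental value. Without the null PT2399 array at 48 h, KDM4B and KDM4C were still the 2 genes lower in null cells with no overlap, against 31.4% of all genes. For KDM4C this depends on the scaling: the null difference in DMSO at 48 h was -0.05 as deposited, 0.13 with each array centred and 0.14 after quantile normalization. Differences between the KDM4 paralogues were not tested.

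TET2 and TET3 oxidise methylated cytosine, the first step of active DNA demethylation. TET2 had intensities of 489 and 422 in parental DMSO cells and of 584 and 530 with PT2399. The PT2399 arrays were higher at both times, by 1.19-fold and 1.26-fold. The effect was 0.29 (SE 0.45) over 8 arrays and 0.29 (SE 0.13, limma adjusted p = 0.647) on the parental arrays alone. A second TET2 probe set gave 351 and 331 in DMSO and 426 and 429 with PT2399, log2 differences of 0.28 and 0.37 against 0.25 and 0.33. Both TET2 probe sets were thus higher with PT2399 at each time in parental cells. In null cells TET2 was at 535 and 608 in DMSO and at 538 and 170 with PT2399, and here the probe sets parted: the 48 h difference was -1.84 on the first and -0.35 on the second.

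TET3 was at 142 and 169 in parental DMSO cells and at 149 and 182 with PT2399, an effect of 0.09 (SE 0.24) whose sign turned to -0.01 when each array was centred and to -0.03 after quantile normalization. The arrays of the treatments overlapped. In null cells it was at 219 and 151 in DMSO and at 250 and 220 with PT2399, with the lowest PT2399 value, from the array that stood apart, just above the highest DMSO value. Its level relative to parental cells in DMSO was 1.55-fold higher at 24 h and 1.12-fold lower at 48 h, so TET3 did not separate the genotypes.

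**Figure D3:**
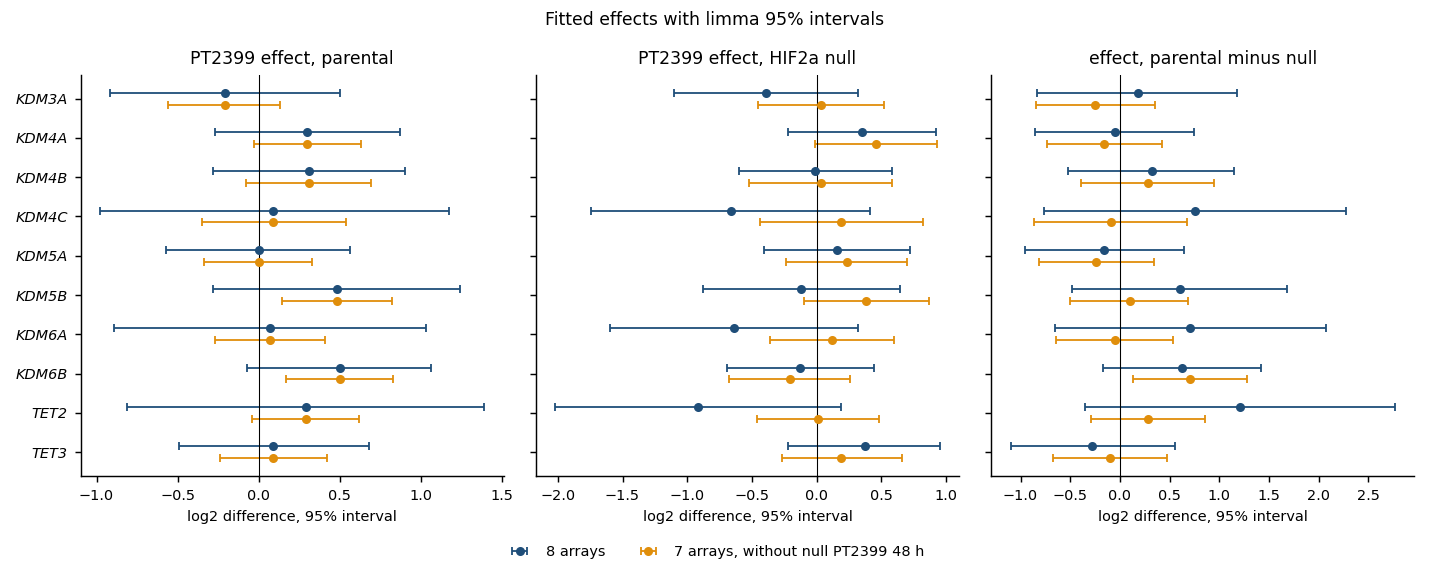
Fitted log2 effect of PT2399 in parental cells, in null cells and their difference, with limma's 95% intervals, over 8 arrays (blue) and without the null PT2399 array at 48 h (orange). Over 8 arrays every interval reaches across 0. Over 7 arrays those of KDM5B and KDM6B in parental cells lie above 0 before any adjustment over genes. On the parental arrays alone, which give the same parental effects, 7.83% of all genes had a limma unadjusted p under 0.05. The 7-array interval of KDM6B in the difference also lies above 0, but it rests on 1 null PT2399 array and is not read as a test. The 7-array fit has 1 null PT2399 array and takes its spread from the parental arrays.

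As a group the 10 genes had a median PT2399 effect of 0.19 in parental cells, with 8 higher and 2 lower by the fitted mean, beside a median of 0.02 over all genes. The split was 5 higher and 5 lower when each array was centred and 7 to 3 after quantile normalization. Centring moved the median of the 10 to 0.09 and that of all genes to -0.08, so both shifted down together. The shift lay at 24 h, where the median of all genes went to -0.19, and not at 48 h, where it was 0.01. At 48 h alone, 4 of the 10 genes were past 0.32 higher (KDM4C, KDM5B, KDM6B and TET2) and 0 past it lower, against 3.94% and 3.62% of all genes. At 24 h alone, 4 were past 0.32 higher (KDM4A, KDM4B, KDM5B and KDM6B) and 0 lower, against 21.6% and 13.1%. That count depends on the scaling. With each array centred, only KDM5B (0.37) was past it higher at 24 h, and KDM3A (-0.51) and KDM4C (-0.40) were past it lower. After quantile normalization KDM4A (0.38), KDM4B (0.45) and KDM5B (0.64) were past it higher and KDM3A (-0.34) lower. The shares of all genes past it under either scaling were not counted, so these counts have no background beside them. Over 8 arrays limma had 0 of the 10 at an unadjusted p under 0.05 for the parental effect, beside 130 genes (1.18%). On the parental arrays alone 2 of the 10, KDM5B and KDM6B, were under 0.05 before adjustment, as were 7.83% of all genes, and limma's adjusted p was 0.589 for KDM5B and 0.557 for KDM6B.

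In null cells the median effect was -0.12, with 3 genes higher and 7 lower, and limma called 0 (0% of all genes), with 0 of the 10 at an unadjusted p under 0.05 against 4.35% of all genes. None was past 0.32 at both times in either direction (2.47% higher and 2.69% lower over all genes). Without the null PT2399 array at 48 h the median was 0.15, with 9 higher and 1 lower, KDM6B. On that array 3 of the 10 were more than 2-fold lower than in DMSO (KDM4C by 2.85-fold, KDM6A by 2.64-fold and TET2 by 3.59-fold), as were 16.2% of all genes, and the second TET2 probe set was not. The KDM4C value there, 101, is under the 118 that the filter asks of the mean. For the difference of effects limma called 0 (0%), and 0 of the 10 had an unadjusted p under 0.05, against 1.74% of all genes. Over 8 arrays 7 differences were higher in parental cells and 3 lower, with a median of 0.46, and without the null PT2399 array at 48 h 4 were higher and 6 lower, with a median of -0.07.

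Between 24 h and 48 h in parental cells, 0 of the 10 were past 0.32 in either direction in DMSO, against 4.55% of all genes higher and 5.1% lower, and 0 in both treatments (1.65% and 2.18%). The median time effect was -0.17 with 8 of 10 lower, KDM5B being lowest at -0.37 (SE 0.31), and limma called 0 (0%) with 0 of the 10 at an unadjusted p under 0.05 (0.833% of all genes). TET3 was the 1 gene higher at 48 h under both treatments, by 0.25 and 0.29 (26.9% of all genes), and 6 were lower under both (30%). In null cells limma also called 0 (0%) for time, and KDM4B was the 1 of the 10 with an unadjusted p under 0.05, against 7.95% of all genes. With each array centred, and after quantile normalization, 0 of the 10 were under 0.05. Without the array that stood apart limma again called 0, with KDM4B and TET3 as the 2 of the 10 under 0.05 before adjustment (lowest adjusted p 0.162), beside 2944 of the 11050 genes. The median time effect of the 10 in null cells was -0.28 with that array and 0.20 without it.

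Between the genotypes in DMSO, KDM6B was the 1 gene past 0.32 higher at both times and KDM4B the 1 past 0.32 lower, against 9.79% and 22.4% of all genes. After quantile normalization KDM4A, KDM6A and TET2 were also past 0.32 higher at both times. The shares above are as deposited, and the share of all genes after quantile normalization was not counted. The median of all genes in this comparison was -0.20 at 24 h and -0.13 at 48 h as deposited, -0.21 and 0.04 with each array centred, and -0.06 and 0.00 after quantile normalization. For 8 of the 10 genes the null difference was short of 0.32, or of opposite sign, at 1 time or both. This comparison shares its parental DMSO arrays with that of PT2399 in parental cells. Side by side, KDM6B had 0.45 and 0.55 with PT2399 and 0.94 and 1.17 in null cells, and KDM4B had 0.50 and 0.11 with PT2399 and -0.57 and -1.24 in null cells.

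**Figure D4:**
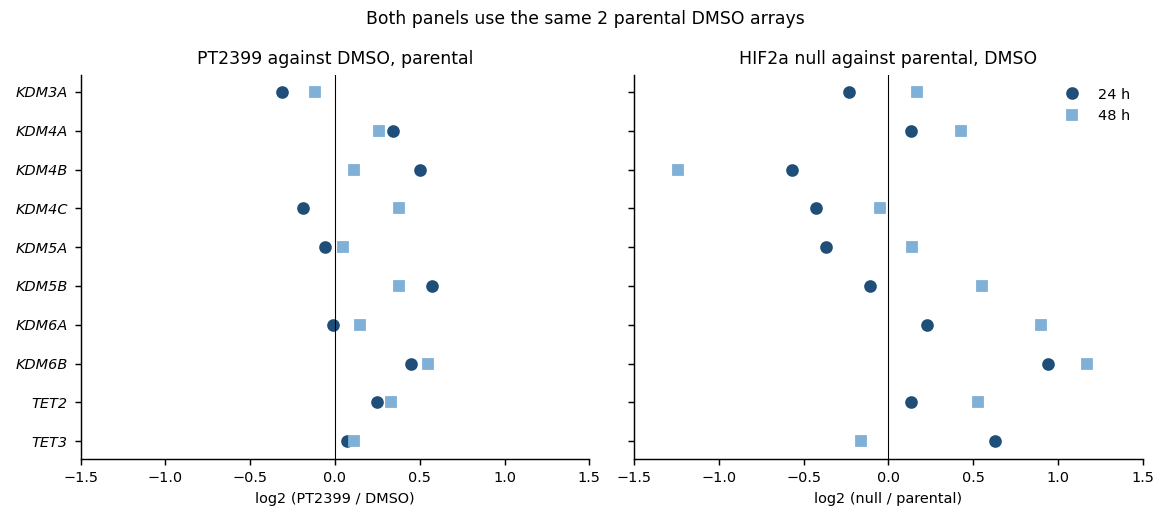
Log2 difference of PT2399 against DMSO in parental cells (left) and of null against parental cells in DMSO (right) for each gene, circles for 24 h and squares for 48 h. Both panels use the same parental DMSO arrays, so a value there enters both. KDM6B is above 0 at every point, and KDM4B is above 0 on the left and below 0 on the right.

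Other genes of the same chemistry, and the methyltransferases that lay the marks, were read from 10 lists with 73 genes, of which 68 had a usable probe set and 64 were above the filter. With PT2399 in parental cells, 0 of the 64 were past 0.32 higher at both times and 2 were lower, against 2.04% and 1.88% of all genes. They were EGLN3 and SUV39H1, which methylates H3K9. SUV39H1 had 322 and 355 in DMSO and 184 and 282 with PT2399, and its null DMSO values were 207 and 175. The median effect over the 64 was 0.00, and limma called 0 of them. Among 16 other JmjC proteins and related hydroxylases above the filter the median was 0.03, and 6 were higher and 2 lower in both pairs, against 30.7% and 27.1% of all genes. The H3K27 methyltransferase complex (EZH1, EZH2, EED and SUZ12) had a median of -0.21, and 3 of its 4 genes were lower in both pairs (27.1% of all genes), 0 of them past 0.32 in both. The 13 measured genes of 2-oxoglutarate, succinate and fumarate metabolism had a median of 0.08, and FH and SDHB were not analysed here.

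In null cells HIF1AN, the asparaginyl hydroxylase that restrains HIF transactivation, was the 1 list gene past 0.32 higher with PT2399 at both times, with 343 and 404 in DMSO and 475 and 571 with PT2399. UHRF1, which guides DNA methylation after replication, was the 1 past 0.32 lower, with 991 and 721 in DMSO and 727 and 547 with PT2399. Over all genes 2.47% and 2.69% were past it, and both 48 h values rest on the array that stood apart. At 24 h alone the log2 differences were 0.47 for HIF1AN and -0.45 for UHRF1. Between null and parental cells in DMSO, 4 of the 64 were higher and 16 lower at both times, against 9.79% and 22.4% of all genes. SUV39H2, a paralogue of SUV39H1, was at 180 and 183 in null cells against 1979 and 1808 in parental cells, log2 differences of -3.46 and -3.30. The H3K36 methyltransferase genes NSD1, NSD2 and NSD3 were 3.08-fold, 2.51-fold and 2.14-fold lower at 24 h. At 48 h they were 2.23-fold, 2.54-fold and 1.54-fold lower. KDM8, a JmjC protein, had 196 and 203 in parental and 80 and 55 in null cells, and KDM7A, a demethylase of H3K9 and H3K27, had 109 and 82 in parental and 169 and 291 in null cells. Both genes passed the filter by their mean, but their lower values are under 118, so no fold is given.

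The genes with the pattern most like that of KDM6B were found by the root mean square difference of log2 values, each centred on its genotype mean. Over 8 arrays they were IFITM3 (0.054), KCTD7 (0.084), MAP2K6 (0.087), B3GNT2 (0.089) and OLFML2B (0.09). Over the 7 arrays without the null PT2399 array at 48 h they were IFITM3 (0.054), SOX4 (0.059), MYLIP (0.069), FHDC1 (0.075) and TFAP2A (0.082). IFITM3, an interferon-inducible membrane protein, had PT2399 differences of 0.43 and 0.56 in parental cells and of -0.11 and -0.07 in null cells, close to those of KDM6B on the same arrays. IFITM3 was the 1 gene in both lists of 5, which share 7 arrays. It was picked for its closeness to KDM6B on these arrays, so that closeness is no separate evidence.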

How the data were processed

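The authors deposited linear intensities of 33252 probe sets for each of the 8 arrays. How they corrected background, summarised probes and scaled arrays was not given in the sources used here. Per the labels' protocols, 100 ng of Trizol-extracted total RNA was converted with an Affymetrix whole-transcript kit. Gene names came from the platform annotation, updated by Entrez identifier (19429 of 19460 single-gene probe sets matched). Each gene was read from its probe set of highest mean log2 value. Genes at or above percentile 40 of that mean were tested, with a limit of 6.88 on the log2 scale. The fit (lmFit and eBayes of limma 3.58.1, under R 4.3.3) used log2 intensities, with terms per genotype for the level, for time and for PT2399, and left 2 residual degrees of freedom. Benjamini-Hochberg adjustment ran over all 11050 genes, with a threshold of 0.05. The 24 h and 48 h pairs are the repeats, so true time differences enter the errors, and the number of arrays limits the precision. Counts past 0.32 on the log2 scale used each pair.

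The fit was also run on simulated data, with known changes in the parental PT2399 arrays and independent normal noise at each gene's fitted spread. That run checks only whether the estimates return the known sizes. It does not copy an array that stands apart. Alternatives were median centring, quantile normalization, no filter, an offset of 16, the mean of all probe sets, an intensity trend, 1 genotype alone and arrays left out. The members, lists and tests were chosen with earlier results of these data known. Named genes were the 10 dioxygenases, EPAS1, reference HIF targets, up to 4 genes per list past 0.32 at both times, and the 5 nearest patterns to the gene with the largest parental effect. Promoter sequences are from RefSeq, GRCh38.p14. List genes without a usable single-gene probe set were not analysed here.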

Additional observations from a re-analysis of the deposited data

How the results depend on the processing

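Of 590 recomputed values for single genes, 546 kept their direction and their side of the threshold, 35 changed sign and 9 passed the threshold where they had not; all 9 came from leaving out the 24 h pair of null cells, which leaves the 48 h pair with the array that stood apart. Leaving out arrays, the number of the 10 genes called ranged from 0 to 5 for the null effect and from 0 to 4 for the difference of effects. Over all genes limma then called 5137 and 3477 without the null 24 h arrays. It called 4 for the parental effect on the parental arrays alone, 14 for the null effect and 42 for time on the null arrays alone, and 2 for the parental effect without the parental 48 h arrays, against 0 in each over 8 arrays. Centring each array or quantile normalization left 1 of the 10 genes past 0.32 at both times in parental cells, KDM5B. Quantile normalization gave 1 in null cells, KDM4A, and 5 for null against parental DMSO. The shares of all genes past 0.32 under these scalings were not counted. With an offset of 16 the list genes past 0.32 in parental cells numbered 1. The list counts under other settings, and the fit without the null PT2399 array at 48 h, were chosen after seeing the data. Centring turned the parental effects of KDM4C to -0.01, KDM6A to -0.03 and TET3 to -0.01, the parental time effects of KDM3A to 0.02 and KDM4B to 0.01, and the null time effect of KDM5B to 0.02; quantile normalization turned the parental effect of TET3 to -0.03. With arrays left out, parental effects ranged from -0.19 to 0.38 for KDM4C, from -0.06 to 0.05 for KDM5A and from -0.01 to 0.15 for KDM6A. Null effects ranged from -0.81 to 0.03 for KDM3A, from -0.04 to 0.03 for KDM4B, from -1.51 to 0.19 for KDM4C, from -0.62 to 0.38 for KDM5B, from -1.40 to 0.12 for KDM6A and from -1.84 to 0.01 for TET2. Differences of effects ranged from -0.25 to 0.60 for KDM3A, from -0.16 to 0.06 for KDM4A, from -0.09 to 1.61 for KDM4C and from -0.05 to 1.47 for KDM6A. Null time effects ranged from -0.19 to 0.23 for KDM3A, from -0.65 to 0.20 for KDM4C, from -0.12 to 0.38 for KDM5B, from -0.36 to 0.40 for KDM6A, from -0.08 to 0.00 for KDM6B and from -0.74 to 0.19 for TET2. The causes were not tested. The model already pairs arrays by time within each genotype, so no separate paired fit was made. Fits with a pair or the null PT2399 array at 48 h left out take their spread from the other genotype, and those on the null spread alone gave all 10 genes the same SE for an effect.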
